A study of Mus musculus with 12 samples.

Results

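The levels of 8 genes of the bile duct epithelium, out of 19531 genes tested, were followed in mouse liver after surgical obstruction of the bile duct. They were Sox9, Elf3, Epcam, Cdh1, Ddr1, Spint1, Cftr and Prom1, chosen by name as genes of cholangiocytes and of the ductular reaction. All 8 passed the filter on dim probes, but Elf3, Epcam, Ddr1 and Spint1 did so only through the livers with an obstructed duct. The livers came from mice lacking factor VII-activating protease (FSAP, a plasma serine protease encoded by Habp2) and from their wild-type (WT) littermates, each 2 weeks after bile duct ligation (BDL) or a sham operation. The 4 groups were FSAP-/- BDL, WT BDL, FSAP-/- sham and WT sham, with 3 mice each and 1 array per mouse. All mice were bred from heterozygous parents after backcrossing to BalbC as far as generation F3, and were 20 to 30 weeks old at use. A partial backcross leaves some of the founder strain's genome, and whole liver RNA was labelled, so the cells that made each transcript were not separated.

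Cholangiocytes are the epithelial cells that line bile ducts, modify bile by secreting chloride and bicarbonate, and stand apart from hepatocytes by a set of adhesion molecules, transcription factors and channels. When bile outflow is blocked, duct-like structures multiply in the portal tracts, a change called the ductular reaction. Sox9 and Elf3 are transcription factors of such epithelia, Epcam and Cdh1 (E-cadherin) hold epithelial cells together, Ddr1 is a receptor tyrosine kinase that binds collagen, Spint1 (HAI-1) inhibits membrane-bound and hepatocyte growth factor-activating serine proteases, Cftr is the apical chloride channel of secretory epithelia, and Prom1 (CD133) is a membrane protein of ductal and progenitor cells.

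Each gene was read by 60-base oligonucleotide probes whose positions the files give on mm9, and 3 of them are shown because they bear on what was measured. The Cftr probe ends in the triplet TAG, in capitals, the Epcam probe covers 829 bases of genome with only 60 bases of its own and so crosses at least 1 intron, and the Prom1 probe shown is the one of 2 that was not used for the test. The mm9 transcript annotation was not used here, so the exon under a probe is not given.
Cftr probe, chr6:18270974-18271033: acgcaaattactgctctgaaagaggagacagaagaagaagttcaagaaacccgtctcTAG
Epcam probe, chr17:88048972-88049800: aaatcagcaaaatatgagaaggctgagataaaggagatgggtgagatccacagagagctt
Prom1 probe, chr5:44397410-44397469: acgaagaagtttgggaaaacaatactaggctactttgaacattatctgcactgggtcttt
The other probes used lie at chr11:112648809-112648868 for Sox9, chr1:137150328-137150387 for Elf3, chr17:35818513-35818572 for Ddr1, chr2:119074929-119074988 for Spint1, chr8:109193812-109193871 for Cdh1 and chr5:44384861-44384920 for the Prom1 probe used.

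The promoters of 3 genes that rose and of the gene that fell are shown as the 250 bases before the start, from RefSeq on GRCm38.p6 and on the gene's own strand, so that motif letters can be looked for both in genes that rose and in Cftr, which fell. Capitals mark every match on either strand to GGAATG (TEAD core), CAGGAA (ETS core), GTTAAT (HNF1 site), CAGGTG (the E-box of SNAI and ZEB factors) or GGGCGG (SP1 box). ACAAAG (SOX core) and TGANTCA (AP-1) were searched as well.
Elf3 promoter, chr1:135258473-135258722, minus strand: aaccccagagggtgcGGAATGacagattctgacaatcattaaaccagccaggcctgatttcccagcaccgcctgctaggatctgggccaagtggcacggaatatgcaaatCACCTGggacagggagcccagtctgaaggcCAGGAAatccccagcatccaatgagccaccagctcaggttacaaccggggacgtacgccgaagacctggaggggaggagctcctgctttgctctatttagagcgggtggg
Epcam promoter, chr17:87635729-87635978, plus strand: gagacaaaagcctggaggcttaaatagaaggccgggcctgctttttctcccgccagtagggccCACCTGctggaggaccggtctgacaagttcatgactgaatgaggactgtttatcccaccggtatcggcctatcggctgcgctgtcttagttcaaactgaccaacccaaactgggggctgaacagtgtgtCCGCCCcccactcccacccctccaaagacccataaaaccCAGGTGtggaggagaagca
Spint1 promoter, chr2:119237110-119237359, plus strand: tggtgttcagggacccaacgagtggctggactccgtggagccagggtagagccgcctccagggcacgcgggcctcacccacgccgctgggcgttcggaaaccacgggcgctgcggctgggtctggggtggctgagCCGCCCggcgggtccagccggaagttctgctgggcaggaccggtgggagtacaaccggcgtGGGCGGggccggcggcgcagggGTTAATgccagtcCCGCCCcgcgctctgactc
Cftr promoter, chr6:18170437-18170686, plus strand: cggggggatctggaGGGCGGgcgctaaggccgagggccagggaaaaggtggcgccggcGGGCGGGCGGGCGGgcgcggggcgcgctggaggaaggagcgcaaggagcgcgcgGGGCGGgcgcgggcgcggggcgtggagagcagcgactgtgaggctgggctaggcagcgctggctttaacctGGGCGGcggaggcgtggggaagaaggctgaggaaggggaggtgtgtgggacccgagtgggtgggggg
RefSeq windows were found for 6 of the 8 genes, with 10 windows in all since Ddr1 and Prom1 have several starts. The SP1 box lay in 7 of these 10 windows and in 32.7% of the 32851 windows of the same length in the table, while the E-box lay in 4 of 10 and in 17.2%. The ETS core lay in 3 of 10 windows, in Elf3 itself, Ddr1 and Prom1, against 25.7% of all, and AP-1 lay in 3 of 10 against 6.75%. TEAD, HNF1 and SOX cores lay in 1 window each, with 12.6%, 6.43% and 16.5% of all windows. The GC content of the windows shown was 57.2% for Elf3, 56.4% for Epcam, 72.8% for Spint1 and 76.4% for Cftr, against a median of 52.4%. These matches describe letters only.

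All levels are log2 signal relative to the array's 75th percentile, are compared only within a probe, and are followed by their log2 model differences with standard errors (SE) from limma. Folds given as "at least" hold for this signal only, and for the 8 genes the differences were smaller with another background correction that also added a constant. The share of spots well above background ran from 54.55% to 62.29% over the 12 arrays. The deleted gene was far lower on all 6 FSAP-/- arrays than on any WT array. Habp2 averaged -7.04 ± 0.13 in FSAP-/- BDL livers and 5.05 ± 0.09 in WT BDL livers (SD, n = 3 each), at least 1180-fold lower. Among sham livers it was above background on 1 of 3 FSAP-/- arrays, replicate 1, at -3.45, where WT sham livers averaged 5.45 ± 0.07. That array was also alone on slide 4, and its deviations from the group mean had an SD of 0.49 over all genes, with 0.22 to 0.44 on the other arrays. Its file held the shared gene name for 9.26% of the probes, which were joined by probe identifier. Its Habp2 signal remained below every WT array, but with these differences its label is in doubt, and every FSAP-/- sham mean includes it. Without it, 7 of the 8 genes were still called for ligation in FSAP-/- livers, with fitted log2 differences of Sox9 at 3.84, Elf3 at 4.78, Epcam at 3.37, Cdh1 at 1.79, Ddr1 at 4.99, Spint1 at 3.67 and Cftr at -2.27. The Y-linked gene Ddx3y was well above background on this array and on FSAP-/- BDL replicates 1 and 2, where Xist was not, and on none of the 6 WT arrays. The sex of the mice therefore differed within and between genotypes, and its part in the results was not tested beyond a covariate for this signal. FSAP-/- sham replicate 1 was the only sham array with the signal. Among sham livers, sex thus cannot be told apart from whatever else sets that array off.

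Ligation raised 6 of the 8 genes and lowered 1 in each genotype. Of all genes tested, 16.2% rose and 22.8% fell in FSAP-/- livers (39.1% in either direction), and 15.2% rose and 17.7% fell in WT livers (32.9%). The median log2 difference of the 8 genes was 3.27 in FSAP-/- livers, against -0.16 for all genes, and 2.92 in WT livers, against -0.03 for all genes. These medians include genes whose sham side was not well above background, Elf3 and Epcam in both genotypes and Ddr1 and Spint1 in FSAP-/- livers. Their size and their order between the genotypes therefore hold for this signal only. Sox9, Elf3, Epcam, Cdh1, Ddr1 and Spint1 rose, Cftr fell, and Prom1 did not pass the threshold in either genotype. The same 6 genes were higher and Cftr lower on every BDL array than on any sham array of the same genotype. Such a gap upward was seen for 18.9% of genes in FSAP-/- and 24.2% in WT livers, and downward for 28.6% in FSAP-/- and 27.9% in WT livers. In whole liver, fewer cells of a type and less RNA per cell cannot be told apart, nor can their opposites.

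**Figure D1:**
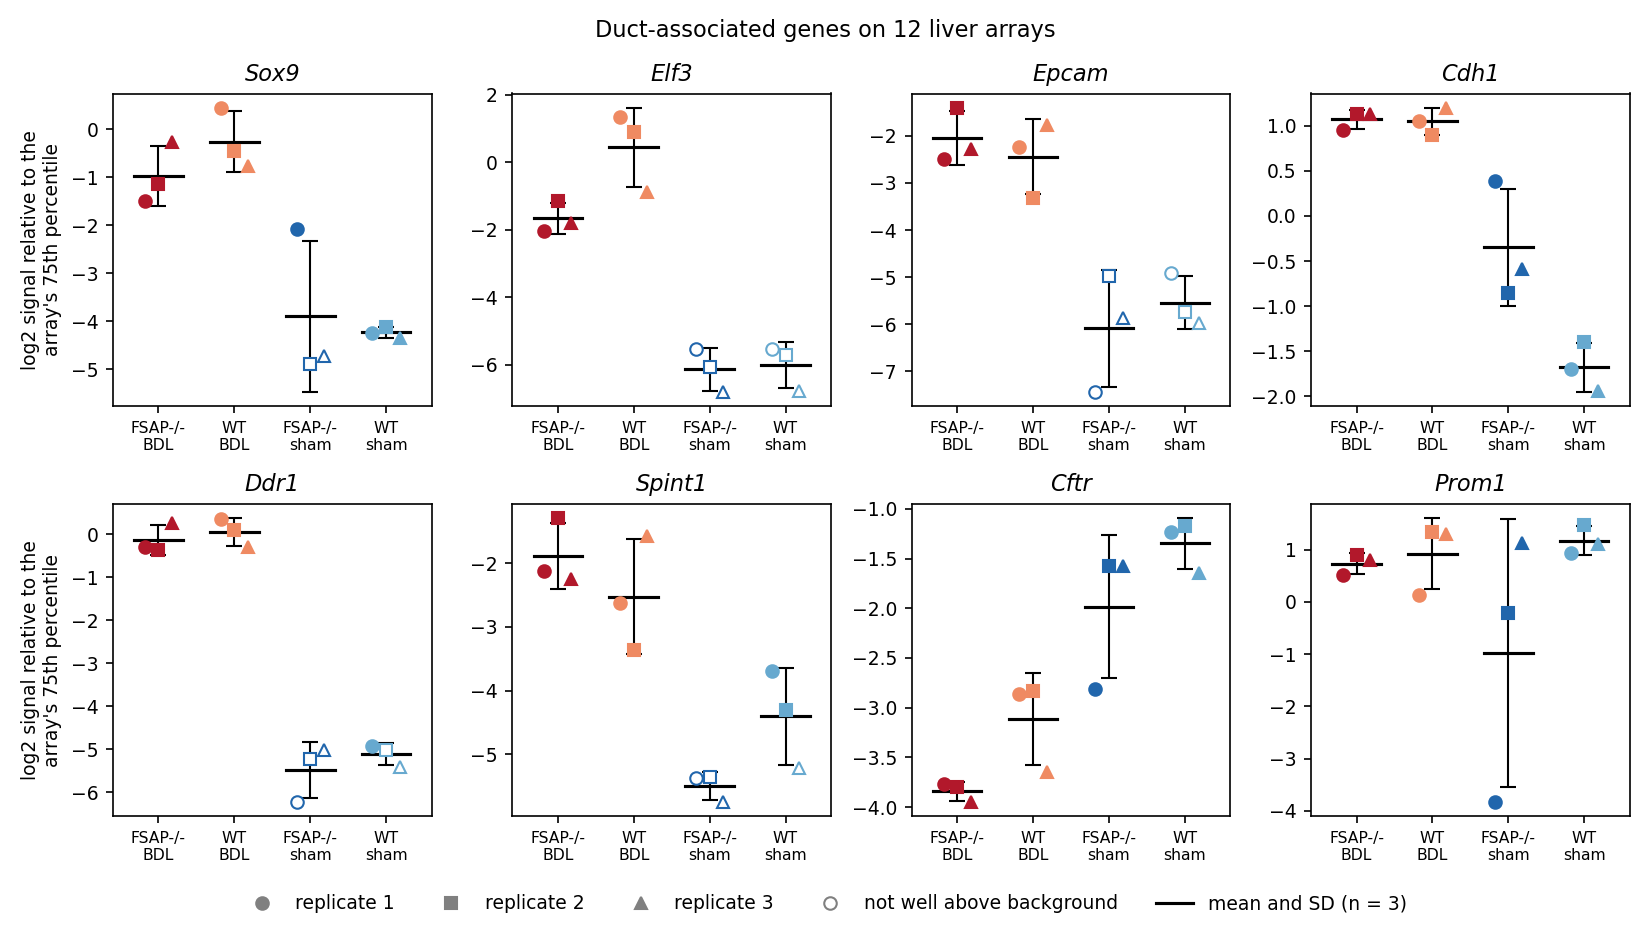
Log2 signal relative to each array's 75th percentile (vertical axes, which differ between genes) of the 8 genes on the 12 arrays, with the mean and SD of 3 mice per group. Open symbols are not well above background. In 6 panels the BDL groups lie above the sham groups, in Cftr below them, and in Prom1 FSAP-/- sham replicate 1 lies alone at -3.83.

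The 2 transcription factors gave the following levels. Sox9 stood at -1.49, -1.14 and -0.27 in FSAP-/- BDL livers, against -2.08, -4.88 and -4.72 in FSAP-/- sham livers. In WT it stood at 0.45, -0.46 and -0.76 after BDL, against -4.24, -4.11 and -4.34 after sham. Both BDL groups lay above both sham groups, and the nearest approach was FSAP-/- sham replicate 1, the highest of the sham arrays. The difference was 2.93 ± 0.65 in FSAP-/- livers (adjusted p = 0.00498) and 3.97 ± 0.65 in WT livers (adjusted p = 0.00109), and without FSAP-/- sham replicate 1 the FSAP-/- value was 3.84. Sox9 was well above background on 1 of 3 FSAP-/- sham arrays and on all 3 WT sham arrays.

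Elf3 was not well above background in any sham liver. It read -2.04, -1.14 and -1.79 in FSAP-/- BDL livers, against -5.54, -6.07 and -6.80 in FSAP-/- sham livers, a rise of at least 9.76-fold (adjusted p = 0.00019). It read 1.33, 0.89 and -0.88 in WT BDL livers, against -5.53, -5.72 and -6.79 in WT sham livers, a rise of at least 41.9-fold (adjusted p = 2.8e-05). Every WT BDL array was above every FSAP-/- BDL array, with replicate 3 of the WT group the lowest of its 3 and nearest to the FSAP-/- values. The genotype difference after BDL is taken up below.

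The adhesion molecules rose as well. Epcam was at -2.48, -1.40 and -2.28 in FSAP-/- BDL livers, against -7.44, -4.97 and -5.87 in FSAP-/- sham livers, and at -2.23, -3.32 and -1.77 in WT BDL livers, against -4.91, -5.75 and -5.97 in WT sham livers. No sham array was well above background, so the rise is given as a bound for this signal. It was at least 7.42-fold in FSAP-/- (adjusted p = 0.000511) and at least 5.58-fold in WT livers (adjusted p = 0.0029). The genotypes overlapped in each surgery.

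Cdh1 was measured on all 12 arrays. Its levels were 0.95, 1.13 and 1.13 in FSAP-/- BDL livers, against 0.39, -0.85 and -0.59 in FSAP-/- sham livers. In WT they were 1.05, 0.90 and 1.20 after BDL, against -1.70, -1.40 and -1.94 after sham. The BDL arrays of both genotypes ran together within a narrow band, while FSAP-/- sham arrays lay above all WT sham arrays. The rise was 1.42 ± 0.28 (adjusted p = 0.00256) in FSAP-/- and 2.73 ± 0.28 (adjusted p = 6.65e-05) in WT livers.

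Ddr1, the collagen receptor, gave the tightest pair of BDL groups among the genes that began near background. It read -0.30, -0.38 and 0.26 in FSAP-/- BDL livers, against -6.23, -5.24 and -5.01 in FSAP-/- sham livers, at least 27.9-fold higher (adjusted p = 4.71e-06). It read 0.35, 0.09 and -0.30 in WT BDL livers, against -4.92, -5.02 and -5.41 in WT sham livers, a difference of 5.16 ± 0.32 (adjusted p = 3.95e-06), with 1 of 3 WT sham arrays above background. The BDL arrays of the genotypes interleaved.

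Spint1, the protease inhibitor, was higher after BDL in both genotypes. It read -2.12, -1.29 and -2.25 in FSAP-/- BDL livers, against -5.37, -5.36 and -5.75 in FSAP-/- sham livers, at least 8.2-fold higher (adjusted p = 0.000254). It read -2.63, -3.37 and -1.58 in WT BDL livers, against -3.70, -4.30 and -5.22 in WT sham livers, a difference of 1.88 ± 0.48 (adjusted p = 0.0118). The WT groups were only 0.32 apart at their nearest arrays, and 2 of 3 WT sham arrays were above background. The WT call did not hold within slide 1 (1.77, adjusted p = 0.164 with slide as a block). The other Spint1 probe, which overlaps the first by 3 bases, averaged -3.13 ± 0.52 in FSAP-/- BDL and -5.74 ± 1.18 in FSAP-/- sham livers, and -3.62 ± 0.48 in WT BDL and -5.64 ± 0.41 in WT sham livers (SD, n = 3).

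Cftr went the other way from the 6 genes that rose. It stood at -3.77, -3.80 and -3.95 in FSAP-/- BDL livers, against -2.81, -1.57 and -1.57 in FSAP-/- sham livers. It stood at -2.86, -2.83 and -3.65 in WT BDL livers, against -1.23, -1.17 and -1.64 in WT sham livers. Every array was well above background, and the highest BDL array of each genotype lay below its lowest sham array. The gene fell by 1.86 on the log2 scale in FSAP-/- (SE 0.33, adjusted p = 0.00154) and by 1.77 in WT livers (SE 0.33, adjusted p = 0.00247), and the interaction was -0.09 ± 0.47.

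Prom1 showed no called difference with ligation. The probe used read 0.51, 0.89 and 0.80 in FSAP-/- BDL livers, against -3.83, -0.21 and 1.13 in FSAP-/- sham livers, and 0.14, 1.33 and 1.31 in WT BDL livers, against 0.93, 1.47 and 1.11 in WT sham livers. The BDL and sham arrays overlapped in both genotypes. FSAP-/- sham replicate 1 lay lowest on both probes, at -7.72 and below background on the probe shown above, whose other FSAP-/- sham arrays read -4.53 and -3.24. The difference was 1.71 ± 0.95 (adjusted p = 0.182) in FSAP-/- livers, 0.28 without that array, and -0.25 ± 0.95 (adjusted p = 0.869) in WT livers. In FSAP-/- livers it passed the threshold at 2.76 without FSAP-/- sham replicate 3 (adjusted p = 0.0289) and at 2.44 with the Y-linked signal as a covariate (adjusted p = 0.0334), and in WT livers at -1.04 with slide as a block (adjusted p = 0.0326).

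**Figure D2:**
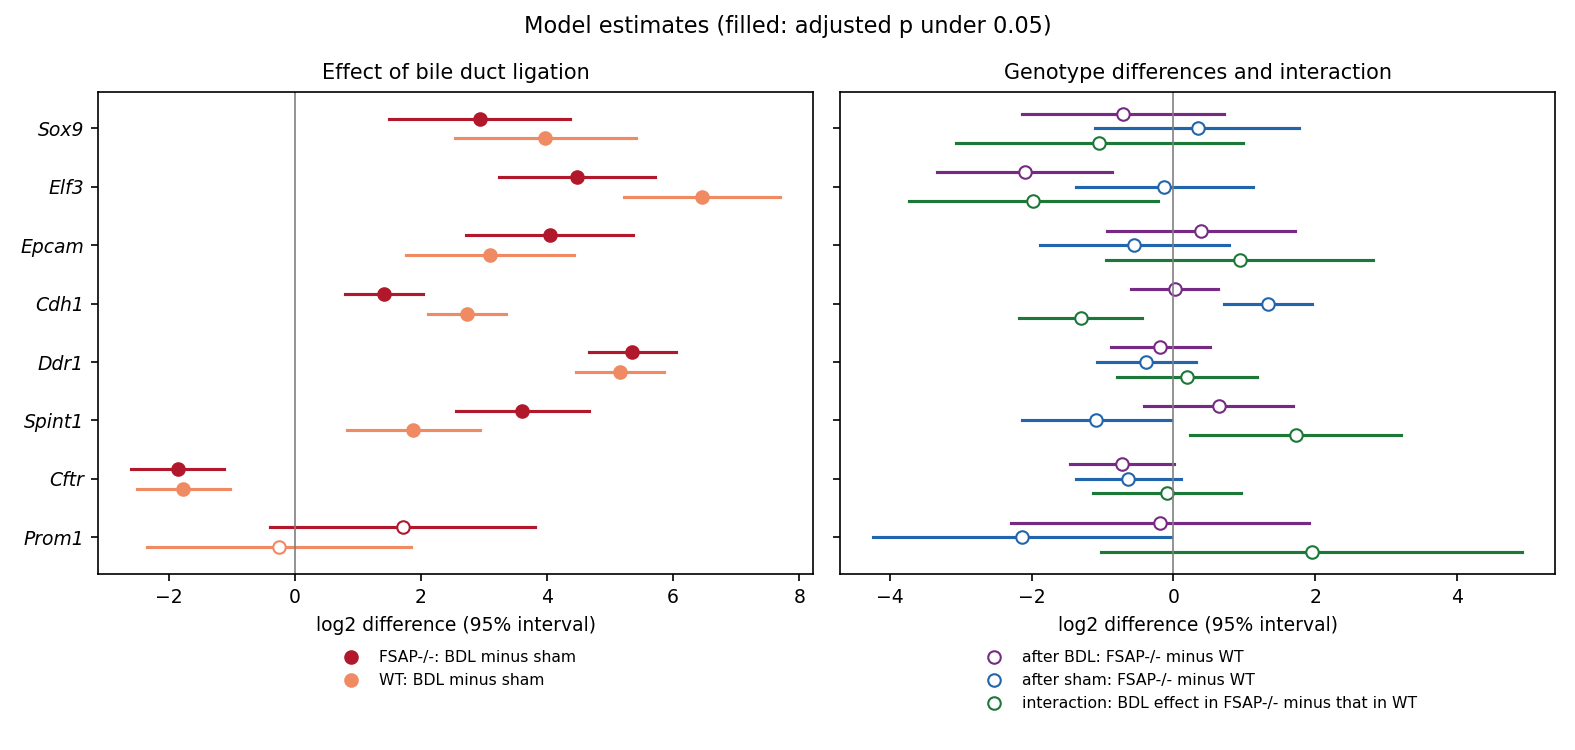
Log2 differences with 95% intervals from the limma model for the 8 genes. Left, BDL minus sham in FSAP-/- and in WT livers; right, FSAP-/- minus WT after BDL and after sham, and the interaction. Filled symbols have an adjusted p under 0.05: 7 of 8 genes in each genotype on the left and none on the right.

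The genotype comparisons in limma gave 0 calls among the 8 genes. After BDL, 0.215% of all genes passed and after sham 0.0154%, and the interaction, which tests whether ligation acted differently in the genotypes, passed for 0.0102%. Unadjusted p-values under 0.05 were found for 1 of the 8 genes after BDL, 3 after sham and 3 in the interaction, where 12.9%, 7.87% and 13.7% of all genes had them. After BDL, the FSAP-/- arrays lay wholly below the WT arrays for 2 of 8 genes, Elf3 and Cftr, and wholly above for 0, where 9.08% and 6.58% of all genes did so. After sham, Cdh1 lay wholly above and Spint1 wholly below, 1 gene each, against 9.82% and 7.26% of genes.

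Elf3 was the largest genotype difference after BDL among the 8, at -2.10 ± 0.56 with an adjusted p of 0.152 and a 95% interval of -3.34 to -0.86. It passed the threshold at -2.77 (adjusted p = 0.0413) without WT BDL replicate 3, and was -0.94 with slide as a block (adjusted p = 0.933), where FSAP-/- and WT BDL livers share no slide. Cftr differed by -0.73 ± 0.33 (adjusted p = 0.391). The intervals for the genes that did not separate include 0, for example -0.60 to 0.63 for Cdh1, -0.88 to 0.51 for Ddr1 and -0.94 to 1.72 for Epcam.

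In sham livers Prom1 differed by -2.14 ± 0.95 (95% interval -4.24 to -0.04, adjusted p = 0.619), and by -0.71 without FSAP-/- sham replicate 1. Cdh1 differed by 1.33 ± 0.28 (adjusted p = 0.249), by 0.96 without FSAP-/- sham replicate 1. Spint1 differed by -1.09 ± 0.48 (adjusted p = 0.612) on the probe used, which was not well above background in any FSAP-/- sham liver. WT sham replicate 3, at -5.22, was not above background either. The other Spint1 probe averaged -5.74 in FSAP-/- and -5.64 in WT sham livers and was not above background in either group. The interaction was -1.31 ± 0.39 for Cdh1 (adjusted p = 0.185), -1.98 ± 0.79 for Elf3 (adjusted p = 0.315) and 1.73 ± 0.67 for Spint1 (adjusted p = 0.302). For the remaining 5 genes its 95% interval included 0, with Sox9 at -1.05 ± 0.92 and -0.14 without FSAP-/- sham replicate 1.

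The slides were unevenly filled. FSAP-/- BDL arrays shared slide 3 with 1 FSAP-/- sham array, and slide 1 held the WT sham arrays with 1 WT BDL array. With slide as a block, which compares arrays within those slides, the FSAP-/- differences after ligation were 3.75 for Sox9, 5.14 for Elf3, 3.81 for Epcam, 1.66 for Cdh1, 4.87 for Ddr1, 3.86 for Spint1 and -2.27 for Cftr. In WT livers they were 4.68 for Sox9, 7.34 for Elf3, 3.31 for Epcam, 2.73 for Cdh1, 5.46 for Ddr1, 1.77 for Spint1 and -1.52 for Cftr, and Spint1 in WT was the call that was lost. Another background correction, normexp, was run with a constant of 50 added to every signal, which draws dim signals together. The 7 calls in each genotype held with smaller sizes, such as 1.77 for Elf3 in FSAP-/- livers and 0.88 for Spint1 in WT livers. These sizes lay under the bounds above. In FSAP-/- livers Elf3 was 1.77 against a log2 bound of 3.29, and Epcam 1.23 against 2.89. The bounds therefore depend on the background correction and the added constant, whose parts were not separated.

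Other genes of the duct were examined beside the 8. The list counts below stand beside 39.1% of all genes called in FSAP-/- and 32.9% in WT livers, and a count near that share is not a result about its list. The counts and medians also hold genes above background on no sham array, which passed the filter through BDL arrays. For these the filter favours a rise. They include Ehf, Itgb6 and Muc1 of the cholangiocyte markers and Ehf, Klf5, Grhl1 and Grhl2 of the transcription factors. Of 22 tested among 24 further cholangiocyte markers, 14 rose and 1 fell in FSAP-/- livers, and 12 rose and 2 fell in WT livers. Their median difference was 1.95 in FSAP-/- and 1.86 in WT livers. Spp1 (osteopontin), a secreted glycoprotein of duct cells, rose by 5.38 ± 0.47 in FSAP-/- and 3.81 ± 0.47 in WT livers (adjusted p = 2.54e-05 and 0.000195). Tnfrsf12a, the receptor of the cytokine TWEAK, rose by 3.61 ± 0.20 in FSAP-/- and 4.79 ± 0.20 in WT livers (adjusted p = 2.78e-06 and 4.07e-07), and Ehf, an ETS factor related to Elf3, was at least 14.4-fold higher in FSAP-/- and at least 7.0-fold higher in WT livers. Aqp1, the water channel of cholangiocytes, differed by 0.32 in FSAP-/- and 0.21 in WT livers, and Slc10a2, the bile acid importer, by -0.23 in FSAP-/- and 0.70 in WT livers, none of them called.

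The genes that act with Spint1 and Cdh1 were called in both directions, where 39.1% of all genes were called in FSAP-/- and 32.9% in WT livers. Of 9 genes of the protease circuit around Spint1, 4 rose and 3 fell in FSAP-/- livers and 3 rose and 3 fell in WT livers. St14 (matriptase), a membrane protease that Spint1 inhibits, rose by 3.48 ± 0.27 in FSAP-/- and 2.48 ± 0.27 in WT livers (adjusted p = 1.57e-05 and 9.88e-05), and Tmprss2, another membrane protease, by 0.96 ± 0.28 in FSAP-/- and 2.82 ± 0.28 in WT livers. Hgfac, the activator of hepatocyte growth factor, fell by 1.17 on the log2 scale in FSAP-/- and by 1.61 in WT livers. Spint2, another inhibitor of this kind, differed by 0.33 in FSAP-/- and 0.28 in WT livers and was not called. Of 10 adherens junction partners of Cdh1, 2 rose and 2 fell in FSAP-/- and 4 rose and 1 fell in WT livers, with Cdh3 (P-cadherin) at least 2.81-fold higher in FSAP-/- and at least 1.52-fold higher in WT livers. Ctnnb1 and Ctnnd1, the beta and delta catenins, differed by 0.06 to 0.23 in the 2 genotypes and were not called.

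Of 13 tested transcription factors of ducts and progenitors, 6 rose and 2 fell in FSAP-/- and 5 rose and 3 fell in WT livers. Grhl1, a factor of epithelial barriers, was at least 6.13-fold higher in FSAP-/- and at least 4.35-fold higher in WT livers. Klf5, a Krüppel-like factor of epithelia, was at least 4.89-fold higher in FSAP-/- and at least 3.06-fold higher in WT livers. Yap1, the effector of the Hippo pathway, differed by -0.35 in FSAP-/- and -0.16 in WT livers and was not called. Of 12 genes of ductal ion and bile transport, 2 rose and 2 fell in FSAP-/- and 2 rose and 1 fell in WT livers, no more than the share of all genes called. Kcnn4, a potassium channel, was at least 4.37-fold higher in FSAP-/- and at least 1.79-fold higher in WT livers, and Slc4a2, which exchanges chloride for bicarbonate as the partner of Cftr in duct secretion, fell by 1.08 on the log2 scale in FSAP-/- and by 1.10 in WT livers. Of 6 tested collagen receptors besides Ddr1, 3 rose in FSAP-/- and 1 in WT livers. The integrin subunit Itgb1 rose by 0.74 ± 0.15 in FSAP-/- and 0.64 ± 0.15 in WT livers, while the related receptor Ddr2 differed by 0.86 in FSAP-/- and 0.02 in WT livers, neither called.

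Markers of other cells were called at the same time, beside 39.1% of all genes in FSAP-/- and 32.9% in WT livers. Of 12 hepatocyte markers, 9 fell in FSAP-/- and 5 in WT livers and 0 rose, while 3 in FSAP-/- and 7 in WT livers were not called. Cyp2e1, a cytochrome P450 enzyme, fell most, by 2.20 on the log2 scale in FSAP-/- and by 2.66 in WT livers. Alb (albumin) differed by -0.65 in FSAP-/- (adjusted p = 0.0364) and by -0.46 in WT livers (adjusted p = 0.134). Cyp3a11, another such enzyme, differed by 0.12 in FSAP-/- and 0.59 in WT livers, not called. The summed hepatocyte signal, as percent of the 75th percentile, was 136000 to 199000 in FSAP-/- BDL livers, against 307000 to 334000 in FSAP-/- sham livers, and 174000 to 233000 in WT BDL livers, against 299000 to 317000 in WT sham livers. As a sum of linear signal it is weighted to the brightest genes, Cyp2e1 and Alb among them, and does not speak for the list as a whole. Of 6 mesothelial markers, from the cells that cover the liver, 6 rose in FSAP-/- and 3 in WT livers. Their summed signal was 346 to 552 in FSAP-/- BDL livers against 75.2 to 116 in FSAP-/- sham livers, and 204 to 408 in WT BDL livers against 56.1 to 84.3 in WT sham livers, with Upk1b not above background in sham livers. Of 6 tested leukocyte markers, 4 rose in FSAP-/- and 2 in WT livers. Of 6 tested among 12 pancreas and gut markers, 1 rose and 1 fell in FSAP-/- and 1 rose and 2 fell in WT livers. Vil1 (villin), which is also a protein of bile canaliculi and ducts, was at least 4.97-fold higher in FSAP-/- and at least 2.78-fold higher in WT livers. Fabp2, a fatty acid-binding protein, fell by 2.35 on the log2 scale in FSAP-/- and by 2.30 in WT livers, and Cel, a lipase, fell by 0.70 in WT livers. Lgals4 and Ctrb1 were well above background on every array and were not called, while Prss2, Pnlip, Cdx1, Cdx2 and Muc2 were not above background in any group. The part of these cells in the differences of the 8 genes was not tested. None of the genes in these lists was called in a genotype comparison.

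**Figure D3:**
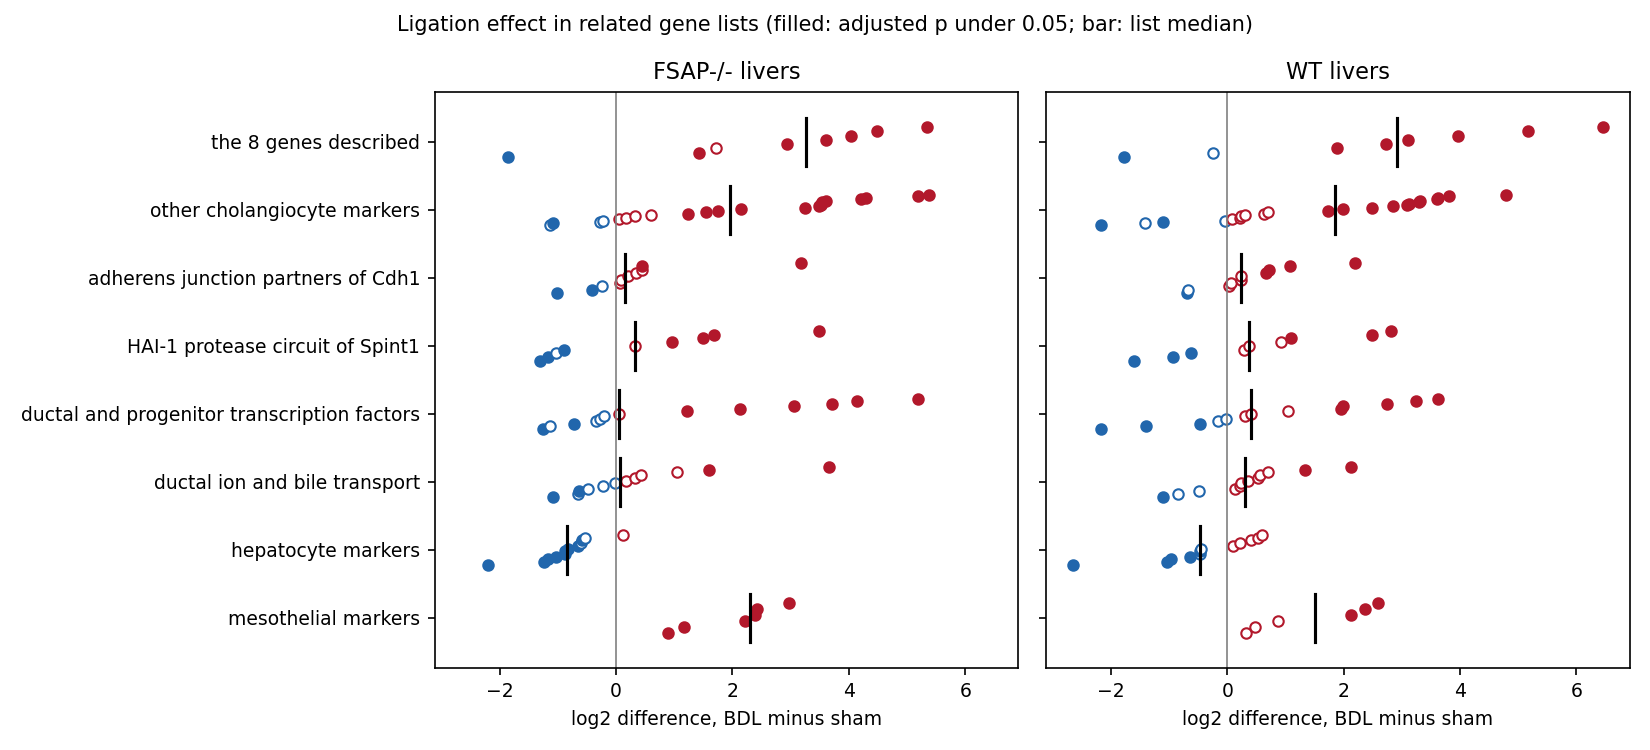
Log2 differences of BDL minus sham (horizontal axis) for the 8 genes and for 7 related lists, in FSAP-/- livers (left) and WT livers (right). Each symbol is 1 gene, filled where the adjusted p was under 0.05, red above 0 and blue below, and the black bar is the list median. The cholangiocyte markers have a median of 1.95 in FSAP-/- and 1.86 in WT livers, and the hepatocyte markers -0.85 in FSAP-/- and -0.46 in WT livers.

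Across the 12 arrays, each of the 8 genes was set against the mean of their standardised levels, which holds the gene itself and so raises its correlation. That mean correlated with Ddr1 at 0.983, Epcam at 0.956, Elf3 at 0.941, Spint1 at 0.911, Sox9 at 0.845, Cdh1 at 0.776, Prom1 at 0.439 and Cftr at -0.74. Of the other tested genes, those most like that mean pattern included Icam1 (r = 0.987), Myo7b (0.98), Relb (0.979), Clcf1 (0.978), Zyx (0.977), Gpr39 (0.975) and Pld1 (0.975). These correlations describe arrays that share groups, slides and scaling.

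Within groups the deviations of the 8 genes showed no common direction. Many of them are of values not well above background, namely Epcam and Elf3 in all sham livers and Ddr1 and Spint1 in most. The correlations therefore cannot show whether the genes vary together. Deviations from the group mean over the 12 arrays correlated between genes with a median of -0.02 over 28 pairs, 13 of them positive. Several of the extreme pairs rested on FSAP-/- sham replicate 1, where Sox9 and Cdh1 were high and Prom1 low. Sox9 and Prom1 correlated at -0.86 over 12 arrays and at -0.3 without that array, and Sox9 and Cdh1 at 0.81 over 12 arrays and 0.21 without it. Epcam and Spint1 correlated at 0.59 over 12 arrays and 0.91 without it, and Cftr and Elf3 at 0.23 over 12 arrays and 0.88 without it. Over the 11 arrays the median was -0.01.

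**Figure D4:**
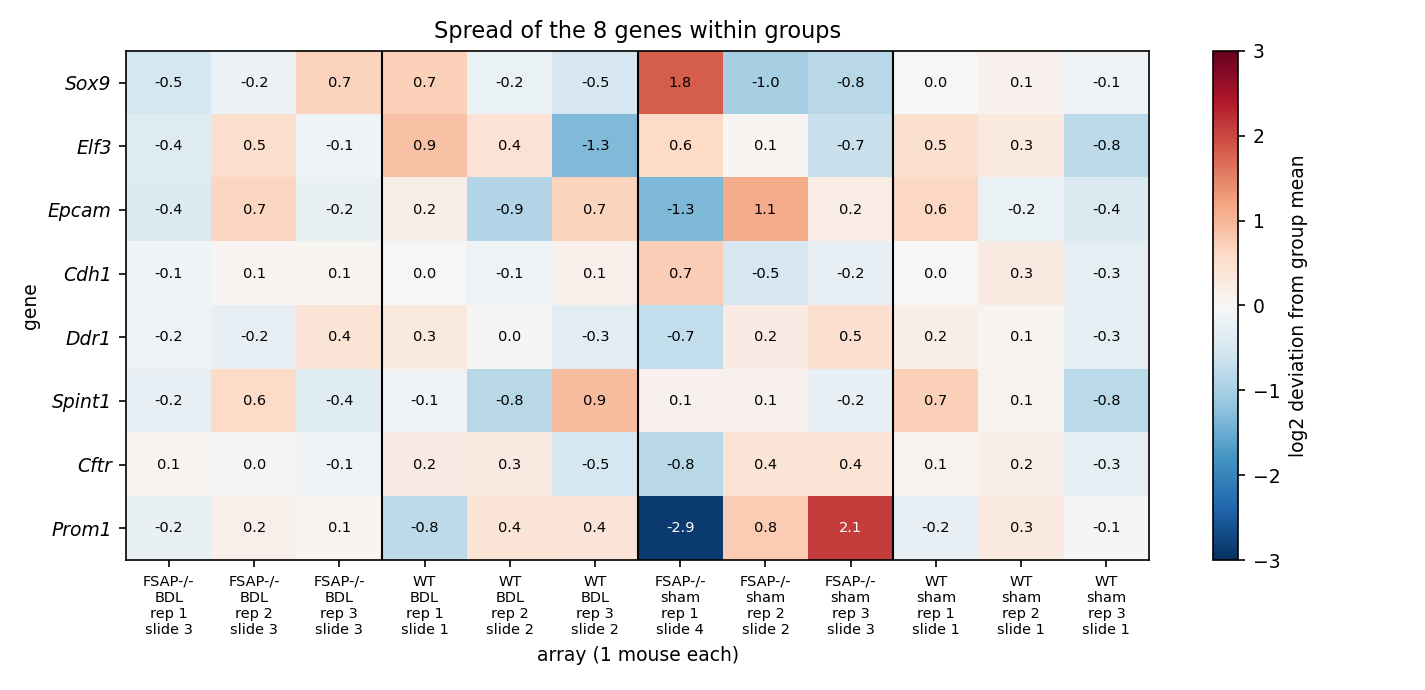
Deviation of each of the 8 genes (rows) from its group mean on the 12 arrays (columns, with replicate and slide), in log2 units, red above and blue below the mean. FSAP-/- sham replicate 1 shows Sox9 at 1.81 and Prom1 farthest below its mean.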

How the data were processed

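Liver RNA of 12 mice was hybridised to 12 one-colour Agilent arrays. Per the labels' protocols, 100 ng of RNA with an integrity number of 7.2 or more was labelled with Cy3. The deposited scanner files give linear spot intensity, written by Feature Extraction 10.5.1.1, per the file headers, as a background-subtracted processed signal. The deposited series matrix holds the authors' log2 values, with a normalization not given in the sources used here. Its column medians were 5.655 to 5.665 and it served as an alternative.

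The log2 of the processed signal was taken minus each array's 75th percentile. Spots of a probe were averaged, the brightest probe stood for a gene, and a gene was kept where at least 3 of the 12 arrays had it well above background, which left 19531. Elf3, Epcam, Ddr1 and Spint1 were well above background on fewer than 3 sham arrays and passed through BDL arrays. Of the lists, so did at least Ehf, Itgb6, Muc1, Grhl1, Grhl2, Klf5, Kcnn4, Cdh3, Upk1b and Vil1, which were above background on no sham array. For such genes the filter favours a rise after BDL, so their calls are not independent of it. A limma 3.58.1 model (R 4.3.3) of the 4 group means on all 12 arrays gave two-sided moderated tests, adjusted by Benjamini-Hochberg at 0.05 over all genes, with 8 residual and 2.69 prior degrees of freedom. It was tested on simulated data. Where the dimmer group had no array above background, the fold is a bound, set against the higher of its own signal and the lowest signal well above background per array. Precision is limited by having 3 mice in a group. Probes were named through RefSeq accessions, of which 26412 of 33063 matched.

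The 8 genes, the lists and the tests were chosen with earlier results of these data known. From each list the 3 called genes with the largest change in WT and up to 2 uncalled bright ones are eligible to be named, and the 8 genes most like the mean pattern are named, except 1 that is not reported here. Alternatives changed the scaling, background correction, filter, slide, replicate number, samples and the Y-linked signal.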

Additional observations from a re-analysis of the deposited data

How the results depend on the processing

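The 7 calls in each genotype were recomputed under 24 alternatives, which gives 336 values, of which 335 kept their direction and their side of the threshold. In many of these the difference itself could not change, so its direction was fixed. Leaving out an array of the other genotype or changing the filter alters only the p-value, as does the Y-linked covariate in WT livers. The count therefore overstates how far the calls were tried. The exception was Spint1 in WT livers with slide as a block (1.77, adjusted p = 0.164). The count of all genes called was 7631 for ligation in FSAP-/- and 6420 in WT livers, and 4150 and 3286 with slide as a block, where fewer arrays are compared. For FSAP-/- against WT after BDL it was 42, against 67 with quantile normalization, 157 with normexp, 6 with no filter, 2 with slide as a fixed and 6 as a random block, 3 with only the groups compared, 19 with the Y-linked signal as a covariate, and 6 to 102 when 1 array was left out. For sham livers it was 3, and 1 with only the groups compared. The interaction gave 2, against 13 with normexp, 0 with no filter, 368 with the Y-linked covariate and 0 to 22 when 1 array was left out. The cause was not tested. Leaving out 1 array gave 0 to 1 calls of the 8 genes after BDL between genotypes and 7 to 8 in FSAP-/- livers after ligation.

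Deviations from the group means correlated between same-numbered arrays at -0.202 to 0.191. Arrays with different numbers were not compared, so this does not settle whether replicate numbers pair the arrays. With the replicate block the count was 11 for FSAP-/- against WT after BDL and 0 for the interaction. The median co-variation of the 8 genes, -0.02, was 0.04 with median scaling, quantile normalization and the authors' matrix, and -0.10 to 0.14 when 1 array was left out. With median scaling the median of all genes moved to -0.36 for ligation in FSAP-/- and -0.19 in WT livers. Signal over background limits Elf3, Epcam, Ddr1 and Spint1 in sham livers, and Sox9 in FSAP-/- sham livers.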
